A study of Homo sapiens with 4 samples.

Results

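The genes described here are 9 inflammatory genes that NF-kB is known to activate or that belong to the same response: the chemokines CXCL8 and CCL2, the cytokines LIF and IL32, the complement component C3, the mitochondrial superoxide dismutase SOD2, the TNF-induced gene TNFAIP2, and the feedback genes BIRC3 and TNFAIP3. They were taken by gene symbol from the authors' deposited table of m6A peaks and were chosen by their known role with their input FPKM and m6A values in view, so those values are given as a description. All 9 of 9 were listed, with 15 of the 9466 peaks in the table and 9 of its 6763 genes. The cells were BEAS-2B, an immortalised line of human bronchial epithelium. One arm was transfected with a plasmid for overexpression of METTL16, an RNA methyltransferase, and the other with an empty plasmid. Each arm gave 1 input library and 1 library from immunoprecipitation with an m6A antibody, so there were 4 libraries and none was replicated. With 0 listed peaks for METTL16, its level in the inputs was not analysed here. No difference below has a replicate check, and every value describes these libraries. The sources used here do not say how long after transfection the RNA was taken, or whether the transfected cells were selected. In bulk RNA, fewer cells of a kind and less RNA per cell cannot be told apart.

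NF-kB is a family of transcription factors held in the cytoplasm by inhibitor proteins. Signals such as TNF, interleukin 1 and bacterial products free it through a cascade of adaptor proteins, ubiquitin ligases and kinases, and it then switches on genes for chemokines, cytokines and its own inhibitors. In airway epithelium this response recruits neutrophils and monocytes. Messenger RNAs of several of these genes are short-lived, and N6-methyladenosine (m6A) is one of the marks known to affect how long a messenger RNA lasts.

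The promoters are shown first, because a shared NF-kB element is what these genes are known for. A search was made for GGNNNTTCC, in which N is any base, on both strands of windows that run from 250 bases before to 50 bases after each RefSeq start site (GRCh38.p14). This short form covers part of the range of NF-kB elements, and a match is a run of letters, not a bound site. Windows were held for 6 of the 9 genes, 10 windows in all, while CCL2, LIF and C3 had none and were not searched. At least 1 match lay in a window of 5 of these 6 genes, namely CXCL8, TNFAIP3, BIRC3, TNFAIP2 and IL32, and in 5 of the 10 windows. Of all 27305 genes with a window 23.5% had a match, and of all 35116 windows of the same length 20.1% held one. The 4 windows of SOD2 and the downstream window of IL32 held no match. The 250 bases upstream of the start site are printed for CXCL8 (chr4:73740319-73740568, plus strand), for BIRC3 (chr11:102317234-102317483, plus strand) and for TNFAIP3 (chr6:137867009-137867258, plus strand). These 3 were chosen because their input values differ, CXCL8 being lower, BIRC3 nearly equal and TNFAIP3 higher in the overexpression arm. Capitals mark the matches.
CXCL8: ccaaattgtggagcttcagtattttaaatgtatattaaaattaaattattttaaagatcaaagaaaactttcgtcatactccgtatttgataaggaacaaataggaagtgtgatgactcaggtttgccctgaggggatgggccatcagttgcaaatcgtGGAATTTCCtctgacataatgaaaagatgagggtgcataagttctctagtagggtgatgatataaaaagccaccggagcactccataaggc
BIRC3: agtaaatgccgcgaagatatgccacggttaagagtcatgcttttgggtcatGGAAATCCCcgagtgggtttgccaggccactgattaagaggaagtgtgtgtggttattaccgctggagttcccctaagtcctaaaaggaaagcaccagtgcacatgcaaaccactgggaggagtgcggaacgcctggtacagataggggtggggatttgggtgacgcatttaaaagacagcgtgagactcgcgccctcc
TNFAIP3: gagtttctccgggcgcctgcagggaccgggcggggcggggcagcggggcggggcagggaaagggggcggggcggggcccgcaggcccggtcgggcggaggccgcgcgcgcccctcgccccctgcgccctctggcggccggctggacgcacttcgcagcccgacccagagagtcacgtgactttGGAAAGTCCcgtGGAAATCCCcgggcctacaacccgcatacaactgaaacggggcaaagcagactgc

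The CXCL8 match, GGAATTTCC, began 91 bases before the start site and occurs in 0.461% of all windows. Upstream of it, at position -137, stood the letters TGACTCA, a form of the AP-1 element. The AP-1 pattern TGANTCA, which does not overlap the other match, was found in 1 of the 10 windows and in 7.71% of all windows. BIRC3 had its match at position -199, and TNFAIP3 had matches at -67 and -55. Around the BIRC3 match and the -55 match of TNFAIP3 the same 12 letters stood, TGGAAATCCCCG, a run found in 5 of all windows on either strand, 0.0142%. That run and the AP-1 pattern were picked after the sequences were seen. In IL32 the matches nearest the start site began at -98 and -68, and in TNFAIP2 the only match began at -97. They are printed within 30 bases each, for IL32 from chr16:3065295-3065324 and chr16:3065325-3065354 and for TNFAIP2 from chr14:103123354-103123383, all on the plus strand.
IL32 at -98: ctgtactcagGGAGTTTCCccagccagctg
IL32 at -68: tcccgagtctGGACTTTCCctctgcccctc
TNFAIP2 at -97: ctccgcccgcGGGTTTTCCgcggttgcggc

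The input libraries give the transcript level of each gene as FPKM, a fragment count adjusted for transcript length and library size. Input levels were lower in the overexpression arm for 8 of the 9 genes, against 57.9% of all genes, and TNFAIP3 was the exception. Changes are given as log2 of (FPKM + 1) in the overexpression arm over the same in the control arm, which understates the change of low genes. The median change of the 9 genes was -0.43, against -0.02 over the 5467 genes that reached 1 FPKM in one or both inputs. On that scale, which all fold limits for input use, at least 1.25-fold lower were 6 of the 9 genes, where 1.81% of all 5467 genes were. At least 1.5-fold lower were CXCL8, C3 and CCL2, a size reached by 0.402% of all genes, and 0 of the 9 were 1.5-fold higher, against 0.549% of all genes. Both fold limits were set after the values were seen, and the genes were chosen with these values known, so the counts describe the choice and test nothing. The authors' deposited table gives each gene an expression p-value that compares the reads of the 2 inputs, and its smallest value among the 9 was 0.132, for CXCL8, with a q-value of 1 for every one of them.

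**Figure D1:**
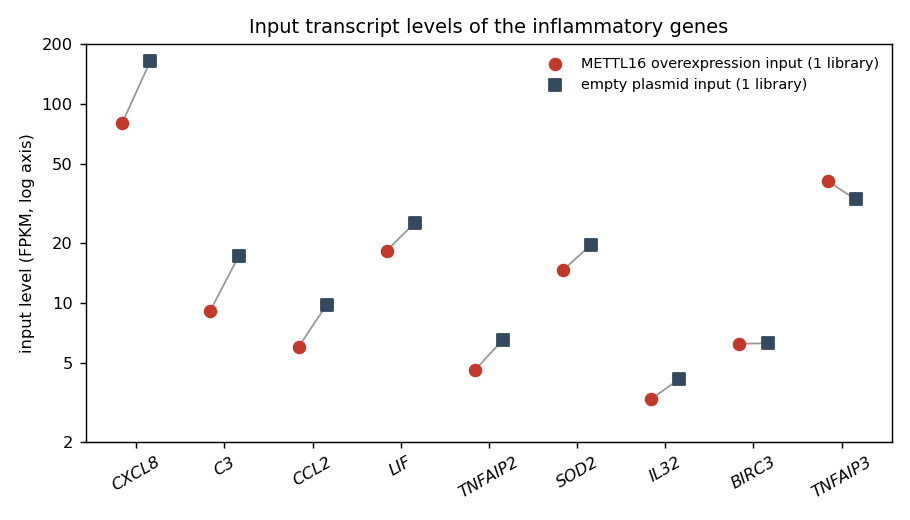
Input level of each of the 9 genes in FPKM on a log axis, with the METTL16 overexpression input as red circles on the left and the empty plasmid input as dark squares on the right, 1 library each, joined by a line. Genes run by change, with CXCL8 at 80.2 against 164.8 FPKM at one end, BIRC3 nearly level, and TNFAIP3 at 41.0 against 33.1 FPKM as the only gene higher in the overexpression arm.

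CXCL8 encodes interleukin 8, the chemokine that draws neutrophils, and was the most abundant of the 9 transcripts in both inputs. Its level was 80.2 FPKM in the overexpression input and 164.8 FPKM in the control input, a log2 change of -1.03. Only 7 of the 5467 genes had a lower change. Its single listed m6A peak (chr4:73742211-73742453, plus strand, 243 bases, hg38) was labelled 3'UTR and assigned to transcript ENST00000401931. The peak ended 1263 bases before the 3' end of the RefSeq gene. Its log2 m6A ratio by the authors' deposited table was 0.32, which is 1.25-fold higher in the overexpression arm, with p = 0.0415 and an adjusted p of 0.231. Of the 8 member peaks labelled 3'UTR, that of CXCL8 was the only one with a positive value, and its input and m6A values had opposite signs. Centred on the median of all listed peaks, it stood at 0.70. On that scale 3'UTR peaks of LIF, TNFAIP2 and SOD2 were also positive, at 0.12, 0.11 and 0.017. Those of CCL2, BIRC3 and C3 and the other of SOD2 were negative. After centring on the median of peaks of similar expression instead, CXCL8 stood at 0.50 and TNFAIP2 at 0.13. On this second scale the 3'UTR peak of LIF stood at -0.016 and those of SOD2 at -0.12 and -0.16. The p-value of the CXCL8 peak was close to the limit of the table, which lists only peaks with p below 0.05.

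CCL2 encodes the chemokine MCP-1, which draws monocytes. It had 5.997 FPKM in the overexpression input, against 9.80 FPKM in the control input, a log2 change of -0.63 and rank 20 from the lowest. Its peak (chr17:34256999-34257208, plus strand) covered 210 bases of the 3'UTR and reached 5 bases past the RefSeq end of the gene. The log2 m6A ratio by the authors' deposited table was -0.60, with p = 0.0200 and an adjusted p of 0.157. Input and m6A values were therefore both lower, in contrast to CXCL8. Among member peaks under 2-fold this was the largest m6A value in either direction.

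LIF, a cytokine of the interleukin 6 family that signals through the shared receptor chain gp130, had 18.3 FPKM in the overexpression input, against 25.3 FPKM in the control input. The log2 change was -0.45. Both of its peaks were long and close to zero change. The 3'UTR peak (chr22:30240453-30242027, minus strand, 1575 bases) reached the last base of the gene and had a log2 m6A ratio of -0.26 by the authors' deposited table, with an adjusted p of 0.0632. The peak at the stop codon (chr22:30242778-30244027, 1250 bases) stood at -0.18, with an adjusted p of 0.0875 in the authors' deposited table. LIF-AS1, a noncoding gene named as antisense to LIF, overlaps the 3'UTR peak in the RefSeq annotation.

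IL32 encodes a cytokine of lymphocytes and epithelial cells that induces other inflammatory mediators. It was the least abundant of the 9, with 3.28 FPKM in the overexpression input and 4.15 FPKM in the control input, a log2 change of -0.27. An exonic peak (chr16:3068022-3068396, plus strand, 375 bases) had the lowest m6A value among the 15 peaks, a log2 m6A ratio of -2.25 by the authors' deposited table, which is 4.77-fold lower in the overexpression arm. Its p was 0.00253 and its adjusted p 0.0471, and it was the only one of the 15 both past 2-fold and below 0.05 after adjustment, as were 7.84% of all peaks. The peak at the stop codon of the same transcript (chr16:3069321-3069720) stood at -0.54, with p = 0.0326 in the authors' deposited table. The internal exonic peak thus had a much lower m6A value than the peak at the end of the coding sequence. Input levels were given per gene, and input at each peak was not analysed here. The stop codon peak runs 190 bases past the RefSeq end of IL32 and covers a pseudogene of the U1 small nuclear RNA (chr16:3069523-3069651).

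C3, the central component of complement, had 9.15 FPKM in the overexpression input, against 17.1 FPKM in the control input. The log2 change of -0.84 was rank 11 from the lowest. Its 3'UTR peak (chr19:6677704-6678053, minus strand, 350 bases) reached the last base of the gene. The log2 m6A ratio by the authors' deposited table was -0.41, with p = 0.0167 and an adjusted p of 0.142. That value lay close to the median of -0.42 over all 4058 peaks labelled 3'UTR.

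TNFAIP2, a TNF-induced gene related to the exocyst subunits, had 4.59 FPKM in the overexpression input, against 6.54 FPKM in the control input. The log2 change was -0.43. One 3'UTR peak was listed (chr14:103135307-103136806, plus strand, 1500 bases), with a log2 fold change of -0.28 and p = 0.0415 in the authors' deposited table. Its p-value was the largest of the 15.

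BIRC3 and TNFAIP3 act back on the pathway. BIRC3 encodes the ubiquitin ligase cIAP2, which joins ubiquitin chains at the TNF receptor complex and keeps the alternative NF-kB branch in check. Its input level hardly differed, at 6.23 FPKM in the overexpression input and 6.26 FPKM in the control input, a log2 change of -0.01. Its 3'UTR peak (chr11:102338386-102338710, plus strand, 325 bases) had a log2 m6A ratio of -2.23 by the authors' deposited table, 4.69-fold lower, with p = 0.0359. No adjusted p was given for it, as for 895 peaks of the table. BIRC3 was the gene with a large m6A difference and almost none in input.

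TNFAIP3 encodes A20, the ubiquitin-editing enzyme that switches NF-kB signalling off, and is itself a target of NF-kB. It had 41.0 FPKM in the overexpression input and 33.1 FPKM in the control input, a log2 change of 0.30, rank 149 from the highest of 5467 genes. A change in the higher direction of 1.25-fold or more was seen in 2.23% of all genes and in 0 of the 9, TNFAIP3 included. The peak at its stop codon (chr6:137878490-137882396, plus strand) had the smallest p of the 15 member peaks, 2.02e-06, with an adjusted p of 0.000232, although its log2 fold change in the authors' deposited table was -0.18. The peak at its start codon (chr6:137867489-137871508) stood at -0.31, with an adjusted p of 0.154 in the authors' deposited table. The spans of these peaks, 3907 and 4020 bases, run over the first to the last genomic base and may include introns. The start codon span also overlaps WAKMAR2, a long noncoding RNA gene. TNFAIP3 input was thus higher while both m6A values were below 0. After centring on the median of all listed peaks these m6A values stood at 0.20 at the stop codon and 0.07 at the start codon. After centring on the median of peaks of similar expression they stood at -0.003 at the stop codon and -0.13 at the start codon. Their sign therefore depended on the centring.

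SOD2 encodes the manganese superoxide dismutase of mitochondria and is strongly induced by TNF. It had 14.6 FPKM in the overexpression input, against 19.7 FPKM in the control input, a log2 change of -0.41. With 4 peaks it was the most often listed of the 9 genes. Both 3'UTR peaks were slightly lower. The first (chr6:159678944-159679118, minus strand, 175 bases) had a log2 m6A ratio of -0.37 by the authors' deposited table, with an adjusted p of 0.0768. The second (chr6:159680469-159681118, 650 bases) had -0.40, with an adjusted p of 0.0118 in the authors' deposited table.

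The other SOD2 peaks were past 2-fold, in opposite directions, and each lay at the place of another annotated gene. An intronic peak (chr6:159713526-159713900, 375 bases) had a log2 m6A ratio of 2.10 by the authors' deposited table, 4.30-fold higher, with p = 0.0367. It lies wholly within HNRNPH1P1 (chr6:159712727-159713998), a pseudogene of the splicing factor gene HNRNPH1, whose input level was 45.0 FPKM in the overexpression arm and 43.6 FPKM in the control arm. The smallest-p listed peak of HNRNPH1 itself had a log2 m6A ratio of 2.22 by the authors' deposited table, close to that of the intronic peak. Reads of a pseudogene and of its parent may be hard to tell apart, and the origin of the reads in the intronic peak was not tested. A peak labelled 5'UTR (chr6:159760757-159761431, 675 bases) had -1.06, 2.08-fold lower, with p = 0.0258 in the authors' deposited table, just past the 2-fold limit. It lies within SOD2-OT1 (chr6:159760258-159762332), a long noncoding RNA gene, and begins 850 bases downstream of the farthest SOD2 start site. RefSeq places 4 SOD2 start sites at 24.2, 57.9, 58.3 and 93.2 kb from the 3' end of the gene. Both 3'UTR peaks lie downstream of all 4, while the intronic peak lies 20.3 kb and the 5'UTR peak 67.5 kb upstream of the site nearest the 3' end. Transcripts from that nearest site therefore contain neither of these 2 peaks. WTAP, a subunit of the nuclear m6A methyltransferase complex, lies between the intronic and the 5'UTR peak, within the span of SOD2.

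**Figure D2:**
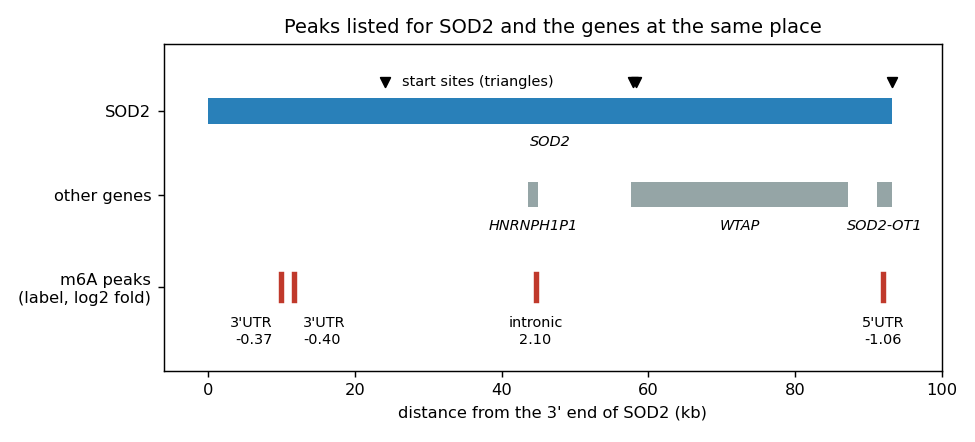
Map of the SOD2 span in kb from its 3' end, with the gene as a blue bar, its 4 start sites as triangles, other annotated genes as grey bars, and the 4 listed m6A peaks as red marks with the authors' region label and log2 fold change (overexpression over empty plasmid). The peak at 2.10 falls in HNRNPH1P1 and the peak at -1.06 falls in SOD2-OT1, while the 2 peaks at -0.37 and -0.40 lie toward the 3' end and overlap none of the other genes drawn.

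Over all 15 peaks, m6A values in the overexpression arm were mostly a little lower. Of the 15, 13 were lower and 2 higher, where 71.5% of all 9466 listed peaks were lower. With the median of all listed peaks subtracted, 7 of the 15 were lower. The median log2 fold change was -0.37 for the 15 peaks and -0.38 for all listed peaks, so the values of the 9 genes sat at the middle of the table. The authors mark a peak as differential at a p-value below 0.05 and at least 2-fold. That mark was carried by 4 of the 15 peaks, 26.7%, against 43.7% of all peaks, shares that were not matched for expression. Of these 4, on IL32, BIRC3 and SOD2, 3 were lower (27.2% of all peaks were differential and lower) and 1 was higher (16.5% of all peaks). An adjusted p below 0.05 was given to 3 of the 15, on IL32, SOD2 and TNFAIP3, against 25.6% of all peaks. The 11 peaks without the mark of a differential peak lay between -0.60 and 0.32.

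By place, 8 of the 15 peaks were labelled 3'UTR and 3 stop codon, with 1 each labelled 5'UTR, start codon, exonic and intronic. Of the 8 in the 3'UTR, 7 were lower, against 73.6% of all 3'UTR peaks, and their median of -0.39 was near the -0.42 of all such peaks. All 3 stop codon peaks were lower, against 82.7% of all stop codon peaks. The intronic peak of SOD2 had the opposite sign to the median of -0.98 over all 699 intronic peaks. Set against the median of their own region, 10 of the 15 peaks were above it and 5 below. Set against the median of peaks of similar expression, in 10 equal groups by mean FPKM, 4 were above and 11 below. The peaks fell in groups 4 to 10 of these, counted from the lowest, and the group medians there ran between -0.52 and -0.18. No member peak overlapped another listed peak, and 5 of the 15 overlapped another RefSeq gene. The matching shares over all listed peaks were not computed, so these overlap counts do not set the 15 peaks apart.

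**Figure D3:**
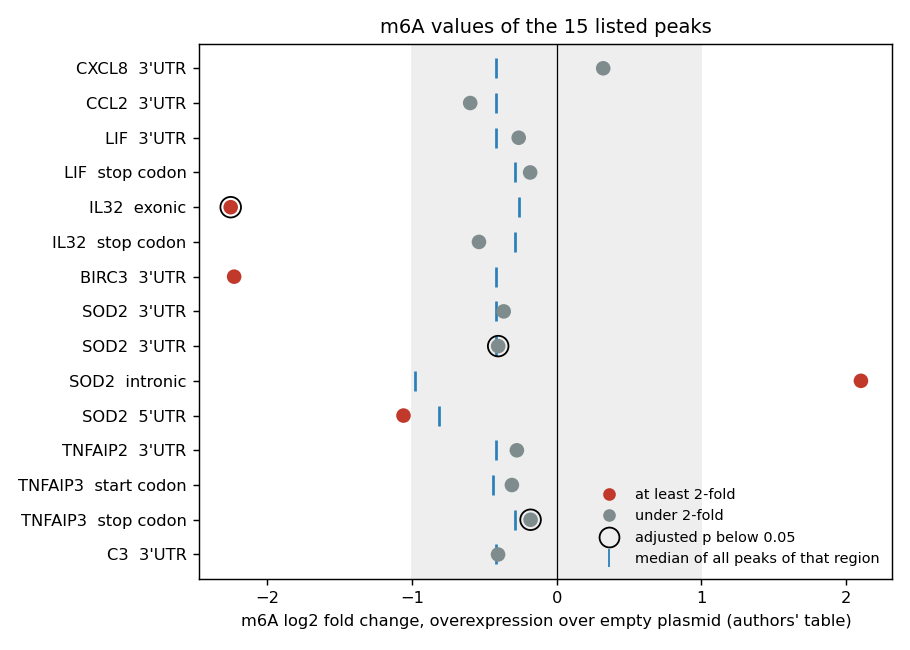
Log2 fold change of m6A (overexpression over empty plasmid, authors' deposited table) for each of the 15 peaks, in red at 2-fold or more and in grey below it, with a ring at an adjusted p below 0.05 and a blue tick at the median of all listed peaks of the same region. Most grey points lie close to their tick, and IL32 exonic at -2.25, BIRC3 at -2.23 and SOD2 intronic at 2.10 lie far from theirs.

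The genes with the lowest input changes, CXCL8, C3 and CCL2, had no peak at 2-fold. The lowest m6A values were on IL32 and BIRC3, whose input changes were -0.27 and -0.01. If the m6A value of the authors is relative to input, as is usual for this assay, both axes share the input libraries.

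**Figure D4:**
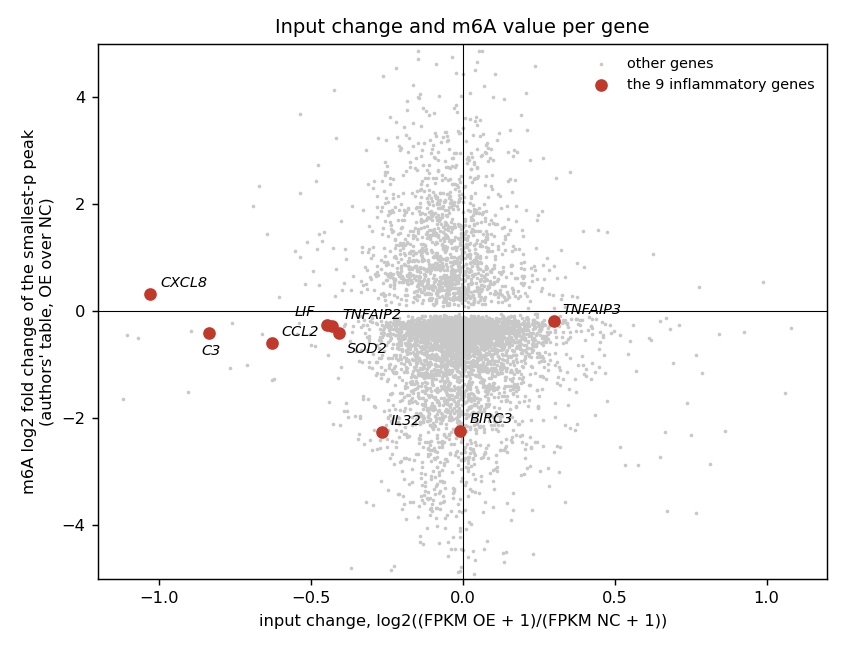
Input change on the log2(FPKM + 1) scale against the m6A log2 fold change of the smallest-p peak of each gene (authors' deposited table), both as overexpression over control, for the 9 genes in red and 5382 other genes in grey, with 76 genes outside the axes. CXCL8 lies far left at an input change of -1.03 and an m6A value of 0.32, and BIRC3 lies near an input change of 0 at an m6A value of -2.23.

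Input levels of the listed genes of the signalling machinery went both ways. Of 42 genes of the NF-kB core machinery (receptors, adaptors, ubiquitin ligases, kinases, inhibitors and the transcription factors), 21 had a listed peak, of which 10 were higher and 11 lower in input, with a median of -0.01. None of the 21 reached 1.25-fold on the log2(FPKM + 1) scale in either direction, although IL1R1 and NFKB2 passed it as plain FPKM ratios. Of all genes, 1.81% were at least 1.25-fold lower and 2.23% at least 1.25-fold higher, so this count does not set the list apart. IL1R1 at -0.32, NFKB2 at -0.29 and TNIP1 at -0.24 lay below the 5th percentile of all genes. Machinery genes without a listed peak were not analysed here. The transcription factor subunit NFKB2 had 8.40 FPKM in the overexpression input, against 10.5 FPKM in the control input. The interleukin 1 receptor IL1R1 had 4.60 against 5.97 FPKM, the A20-binding inhibitor TNIP1 48.4 against 57.3 FPKM, and the TNF receptor adaptor TRADD 2.52 against 3.10 FPKM. Higher were the Toll-like receptor adaptor MYD88, with 45.0 FPKM in the overexpression input and 39.8 FPKM in the control input, and the cIAP1 gene BIRC2, with 31.3 and 27.9 FPKM.

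Differential peaks of the machinery went both ways. Its 21 genes held 28 peaks, 22 lower and 6 higher, where 71.5% of all peaks were lower, and 13 of the 28 were lower after centring on the median of all listed peaks. Differential were 11 of the 28 (39.3%, against 43.7% of all peaks), 5 lower and 6 higher. The kinase MAP3K7 (TAK1) had an intronic peak at a log2 m6A ratio of 4.71 by the authors' deposited table. The transcription factor REL had an intronic peak at 3.97 and a 3'UTR peak at -1.48, and NFKB2 had 1.21 at its start codon, all from the authors' deposited table. Lower by the authors' deposited table were the ubiquitin ligase TRAF6 at -2.15 in its 3'UTR, the lymphotoxin receptor LTBR at -1.99 in an intron and the deubiquitinase CYLD at -1.49 in its 3'UTR. None of these 6 genes had an adjusted p below 0.05 for the differential peak, and the MAP3K7 peak was given no adjusted p.

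Input levels of other NF-kB targets went both ways. Of 40 further target genes, 11 had a listed peak, 6 of them higher and 5 lower in input, with a median of 0.02, and none reached 1.25-fold on the same scale. That limit was reached by 1.81% of all genes in the lower direction and 2.23% in the higher, so the count does not set these targets apart. The adhesion molecule ICAM1 had 36.9 FPKM in the overexpression input, against 44.6 FPKM in the control input, and the cytokine IL11 had 48.9 against 53.2 FPKM. Higher were the chemokine CXCL10, with 9.998 against 8.22 FPKM, the macrophage growth factor CSF1, with 21.7 against 18.7 FPKM, the survival gene BCL2L1, with 45.9 against 41.3 FPKM, and tissue factor F3, with 195.6 against 175.3 FPKM. Their 17 peaks were 16 lower and 1 higher, where 71.5% of all peaks were lower, but only 5 of the 17 were lower once the median of all listed peaks was subtracted. Of the 17, 1 was differential (5.88%, against 43.7% of all peaks), that of CXCL10. That peak, in the 3'UTR, stood at -1.21 in the authors' deposited table, with an adjusted p of 0.0486. Values varied with expression, and the median of all listed peaks was -0.52 in group 4 by mean FPKM and -0.18 in group 10. The 17 peaks were not set against peaks of similar expression, so whether they differ from such peaks was not tested. The smallest p of the named targets was 7.97e-14, at a 3'UTR peak of IL11 with a log2 m6A ratio of -0.47 by the authors' deposited table. These target genes, like the 9, are known only where a peak was listed, so genes such as IL6 or CXCL1 without a line in the table were not analysed here.

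**Figure D5:**
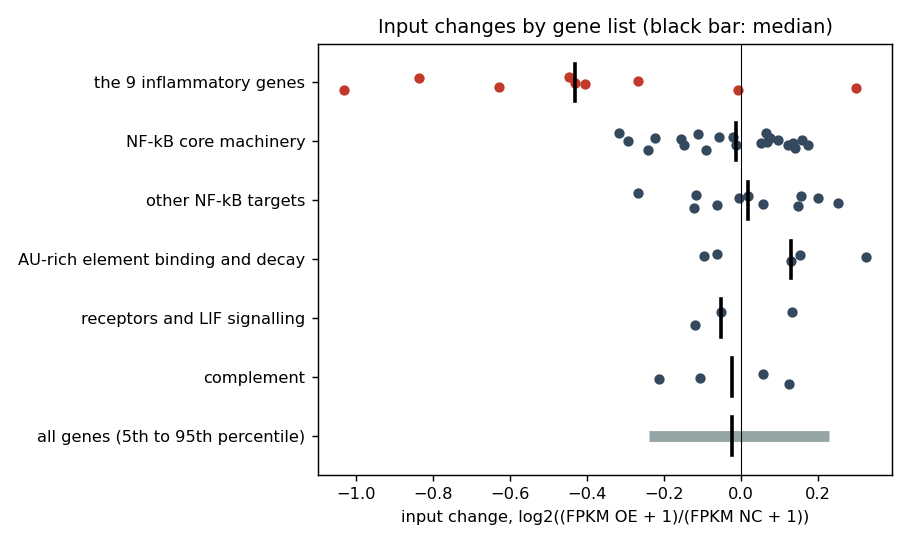
Input change on the log2(FPKM + 1) scale, overexpression over control, with 1 point per gene for the 9 inflammatory genes (red) and 5 lists of related genes (dark), a black bar at each median, and a grey bar for the 5th to 95th percentile of all genes, -0.24 to 0.23. The 9 genes have their median at -0.43, while the medians of the other lists lie between -0.05 and 0.13.

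Genes for binding of AU-rich elements in cytokine messenger RNAs, for LIF signalling and for complement were listed in smaller numbers. Of 12 genes of AU-rich element binding and decay, 5 were listed, 3 higher and 2 lower in input. Their 8 peaks were 5 lower and 3 higher (3 lower after the same centring), where 71.5% of all peaks were lower. Of the 8, 3 were differential (37.5%, against 43.7% of all peaks). ZFP36L1, which promotes decay of such messenger RNAs, had 45.6 FPKM in the overexpression input and 36.1 FPKM in the control input, a log2 change of 0.33, and its 3'UTR peaks stood at 0.31 and 0.34 in the authors' deposited table with adjusted p-values of 0.000854 and 0.00479. RC3H1 (Roquin-1), another decay factor, had 3'UTR peaks at -1.27, with an adjusted p of 0.00479, and at 2.56 with none, in the authors' deposited table. The other differential peak of this list was in the 5'UTR of HNRNPD (AUF1), at -1.26 by the authors' deposited table. Of the genes that carry the LIF signal onward, the kinases JAK1 and TYK2 and the transcription factor STAT3 were listed, with none of the receptors, and all 6 of their peaks were higher in the authors' deposited table, with JAK1 at 0.46, 0.67 and 3.12 in its 3'UTR, TYK2 at 1.44 and STAT3 at 0.75 and 0.53. Of all listed peaks, 28.5% were higher. The JAK1 peak at 3.12 was given no adjusted p. Input changes of JAK1, TYK2 and STAT3 ran between -0.12 and 0.13. Of 10 further complement genes, 4 were listed, 2 higher and 2 lower in input, and their 6 peaks were 3 lower and 3 higher. After centring on the median of all listed peaks 1 of the 6 was lower. The protease C1R had 45.1 against 52.4 FPKM, with an intronic peak at 2.63 in the authors' deposited table, and the complement inhibitors CD46 and CD55 had differential peaks at 2.97 and 1.93 there. Differential were thus 3 of the 6 peaks, against 43.7% of all peaks, and the CD46 peak was given no adjusted p. The lower peaks were at the stop codon of C1R at -0.18, and at the stop codon and in the 3'UTR of the inhibitor CD59 at -0.14 and -0.71, by the authors' deposited table.

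The labelled cell type was checked on the genes with a listed peak. Of 10 epithelial markers 3 were listed, with summed levels of 113.9 FPKM in the overexpression input and 106.5 FPKM in the control input, mostly from the keratins KRT8 and KRT18. The remaining listed marker, ITGB4, had only 0.69 FPKM in the overexpression input and 0.78 FPKM in the control input. Of 9 leukocyte markers only CD68, a lysosomal protein also made outside leukocytes, was listed, with 57.7 against 41.6 FPKM, and its part in the results was not tested. Of 8 fibroblast and endothelial markers only COL1A1 was listed, with 2.28 against 2.33 FPKM. Markers without a line in the table were not analysed here.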

How the data were processed

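Per the labels, ribosomal RNA was depleted and a strand-marking paired-end protocol was used, and fastp 0.19.4 and the build hg38 are named per the submitters' processing notes. Not given in the sources used here are aligner, peak caller, expression program and use of strand in counting. The authors deposited 1 table, which gives each peak its log2 fold change of m6A with raw and adjusted p-values. FPKM per gene for both inputs, and the ratio (fold change) of these FPKM values with its log2, p-value and q-value, were also deposited. Depth is unknown, as low FPKM values showed no whole-read steps, so no interval is given.

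Deposited starts were taken as 0-based and 1 was added, because 495 of them lay 1 base before a RefSeq gene start and 4 on it. Python 3.11.15 and pandas 2.3.3 were used, and counting was tested on simulated data. Input changes used a pseudocount of 1, and lists were limited to genes that reached 1 FPKM in one or both inputs. The marker sums had no such limit. All 9 genes were named with every peak. From each further list up to 6 genes by input change and up to 6 by smallest p of a differential peak could be named, and some of them were left out for room. CD68 and COL1A1 stand for marker lists. The members and lists were chosen with earlier results of these data known. No condition was tested against another, since each group held 1 library. Promoter sequences are from RefSeq (GRCh38.p14), and peak sequences were not analysed here. Alternatives were another pseudocount, plain ratios, no filter, centring, 1 peak per gene and an adjusted p.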

Additional observations from a re-analysis of the deposited data

How the results depend on the processing

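No paired analysis was possible because each group held 1 library. The input of 8 of the 9 genes was lower with a pseudocount of 0.1 and as a plain FPKM ratio, and that of 7 after centring on the median of all genes, which put BIRC3 at 0.016. The median input change of the 9 genes was -0.43 as reported, -0.46 with a pseudocount of 0.1, -0.47 as a plain ratio and -0.41 after centring. m6A signs depended on scaling: 7 of the 15 peaks were lower after centring on the median of all listed peaks, and their median became 0.017, while centring on peaks of similar expression left 11 lower and a median of -0.090. Of the 4 peaks at 2-fold, 3 passed after either centring, the 5'UTR peak of SOD2 being lost, and 1, the exonic peak of IL32, also had an adjusted p below 0.05. With 1 peak per gene, 8 of 9 were lower. After centring on all peaks, lower peaks numbered 13 of 28 for the NF-kB core machinery, 5 of 17 for other NF-kB targets, 3 of 8 for AU-rich element binding and 1 of 6 for complement. Centring on peaks of similar expression was not done for these lists. Low levels, as for IL32, and the unknown depth limit precision, and 1 library per group leaves the spread between cultures unmeasured.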

Other observations

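Genes that the deposited table annotates to the KEGG pathways of the 9 genes had input levels on both sides of no change. For NF-kappa B signaling, 39 genes other than the 9 reached 1 FPKM in one or both inputs, 20 higher and 19 lower in the overexpression arm, with a median log2 change of 0.02, and 0 of them were at least 1.25-fold lower on the log2(FPKM + 1) scale. The same count was 0 of 38 for TNF signaling, 0 of 24 for IL-17 signaling and 0 of 28 for cytokine-cytokine receptor interaction. Among all genes 1.81% were that much lower, under 1 gene in lists of these sizes, so the zeros set none of these lists apart. As plain FPKM ratios, IL1R1, NFKB2 and INHBA were over 1.25-fold lower. Among the 9, CXCL8, BIRC3 and TNFAIP3 are annotated to the first of these pathways, and SOD2, TNFAIP2 and C3 to none of the 4. These pathways were chosen after values were seen and share genes.

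In the higher direction, each of 3 of these pathways held 1 gene at 1.25-fold or more, which is about the 2.23% share of all genes. These were GADD45A, a stress-induced growth arrest gene, with 31.7 FPKM in the overexpression input and 23.8 FPKM in the control input, JUNB, a subunit of the AP-1 transcription factor, with 7.41 and 5.26 FPKM, and TNFSF10, the death ligand TRAIL, with 28.04 FPKM in the overexpression input and 20.0001 FPKM in the control input. Their log2 changes were 0.40, 0.43 and 0.47.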
